A study of Mus musculus with 8 samples.

Results

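The genes described here are 30 imprinted genes, taken by gene symbol from a table of 55573 genes, in RNA of the posterior trunk of embryonic day 9.5 mouse embryos. By their known parent of origin, 19 are expressed from the paternal allele and 10 from the maternal allele, and the products of Gnas differ in parental origin by transcript and tissue. Grb10 is classed as maternally expressed, which is its class outside neurons. The 30 genes lie in 14 clusters or single-gene loci. RNA was measured in C57BL/6 embryos from crosses of heterozygous parents carrying a knockout allele of Prtg, the gene of protogenin, an immunoglobulin superfamily receptor of the cell membrane. The tissue was the trunk behind a division at somites 12 and 13. There were 2 wild-type libraries (WT), 3 libraries heterozygous for the allele (Prtg+/-, Het) and 3 homozygous libraries (Prtg-/-, KO), and no other allele or treatment is named. The labels name no Cre or tissue limit for the allele, and the part of Prtg it removes is unnamed in the sources used here. Libraries are named by the genotype and the pair of numbers in the column name, as in KO 1-3.

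Imprinted genes are transcribed mainly from the allele inherited from one parent, because DNA methylation laid down in the egg or sperm marks control regions and is kept in the embryo by factors such as ZFP57 and TRIM28. Many of them act on growth of the embryo and placenta: paternally expressed Igf2 promotes growth, while maternally expressed Igf2r, Grb10, Cdkn1c and Phlda2 restrain it. Clusters often pair a coding gene with a long noncoding RNA from the other parental allele, as Igf2 with H19 and Igf2r with Airn. The counts add up both alleles, so they give the level of each gene and not its parental origin. In such bulk tissue, fewer cells of a type and less RNA per cell cannot be told apart.

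Total gene counts ran from 16874860 to 17511964 per library. The X-inactivation RNA Xist measured 803 to 1101 CPM (counts scaled to the same library total) in 4 libraries, which were KO 1-3, WT 1-2, Het 2-4 and Het 1-1, against 1.52 to 3.57 CPM in the rest. Prtg itself was at 317 and 386 CPM in WT, at 250, 240 and 282 CPM in Het and at 268, 254 and 237 CPM in KO, so the Het and KO libraries overlapped and whole-gene counts check the labels only weakly. Nothing in the labels states that samples came from separate litters, so p-values measure the spread between these samples only. Of the 30 imprinted genes, 27 passed the expression filter and were tested among 16262 genes, and Dlk1, Rtl1 and Rian did not pass. Fold changes are log2 values ± SE, adjusted p-values come from the quasi-likelihood test of edgeR after Benjamini-Hochberg adjustment over all tested genes, and a gene is called at an adjusted p below 0.05.

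Among the abundant imprinted genes, H19, Igf2 and Mest each carry a microRNA inside their transcript, and their mature sequences are shown because the host genes are described first. They are written 5′ to 3′ from RefSeq (GRCm38.p6), with the seed, bases 2 to 8, in capitals.
miR-675-5p (H19, chromosome 7, minus strand): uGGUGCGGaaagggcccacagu
miR-675-3p (H19): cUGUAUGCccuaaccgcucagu
miR-483-5p (Igf2, chromosome 7, minus strand): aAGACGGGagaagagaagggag
miR-483-3p (Igf2): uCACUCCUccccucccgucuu
miR-335-5p (Mest, chromosome 6, plus strand): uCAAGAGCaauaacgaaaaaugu
miR-335-3p (Mest): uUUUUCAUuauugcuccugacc
The 6 arms have 6 different seeds. Poly(A) RNA does not measure mature microRNAs, and the counts below are those of the host genes.

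Per length, the imprinted genes covered a wide range of levels, and a single noncoding RNA stood at the top. H19 (chromosome 7, 142575529 to 142578143, GRCm38), the maternally expressed host of miR-675, had a mean of 2624 FPKM (fragments per kb of exon, scaled by the library total, computed from the deposited counts and exonic lengths) and ranked 3 among all genes of the table. It alone took 0.584% to 0.723% of all reads of a library, out of 1.45% to 1.59% for the 30 genes together. Next came Mest at 442 FPKM, a paternally expressed gene of the mesoderm that encodes a hydrolase-like protein. Grb10, which encodes an adaptor that restrains insulin and IGF receptor signalling, had 202 FPKM, and Peg10, a retrotransposon-derived gene needed for the placenta, had 200 FPKM. Peg10 and Grb10 did not differ beyond the range over libraries, which was 183 to 226 FPKM for Peg10 and 197 to 209 FPKM for Grb10. Nnat, which encodes the small membrane proteolipid neuronatin, had 108 FPKM. Peg3, a zinc finger gene, had 90.7 FPKM. Cdkn1c, the gene of the cell cycle inhibitor p57, had 76.3 FPKM, and the growth factor gene Igf2 had 67.7 FPKM. Igf2r, whose receptor clears IGF2 from the cell surface, had 58.5 FPKM and Gnas, the gene of the stimulatory G protein alpha subunit, 57.8 FPKM. The ranges over libraries of Igf2, Igf2r and Gnas overlapped (61.97 to 74.78, 53.4 to 65.96 and 50.5 to 63.7 FPKM), so their order is not fixed by these libraries.

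The lower levels belonged to genes of the Snrpn-Ndn region, to noncoding RNAs and to other coding genes. Ndn, which encodes necdin, had 40.9 FPKM, Snrpn, a splicing protein gene, 35.4 FPKM, Peg12 18.1 FPKM and Magel2 6.10 FPKM. Phlda2, which restrains placental growth, had 28.2 FPKM, and the zinc finger gene Plagl1 had 21.4 FPKM. Impact, a regulator of translation under amino acid starvation, had 11.8 FPKM. Zim1 had 4.96, Mirg 4.41, Airn 4.40, Sgce, the gene of epsilon-sarcoglycan, 3.46, Zrsr1 2.16 and Usp29 1.68 FPKM. Nespas had 0.966, Slc22a18 0.615 and Meg3 0.553 FPKM. Kcnq1ot1, a noncoding RNA whose annotated exon spans 93092 bases, had 0.0867 FPKM from 1106 reads. Of the 30 genes, 21 overlap another gene of the table and 9 overlap none. The kit named in the labels does not mark strand, and the sources used here give no strand setting for the counting, so reads of Kcnq1ot1, Airn and Nespas cannot be told from reads of the genes they run antisense to.

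**Figure D1:**
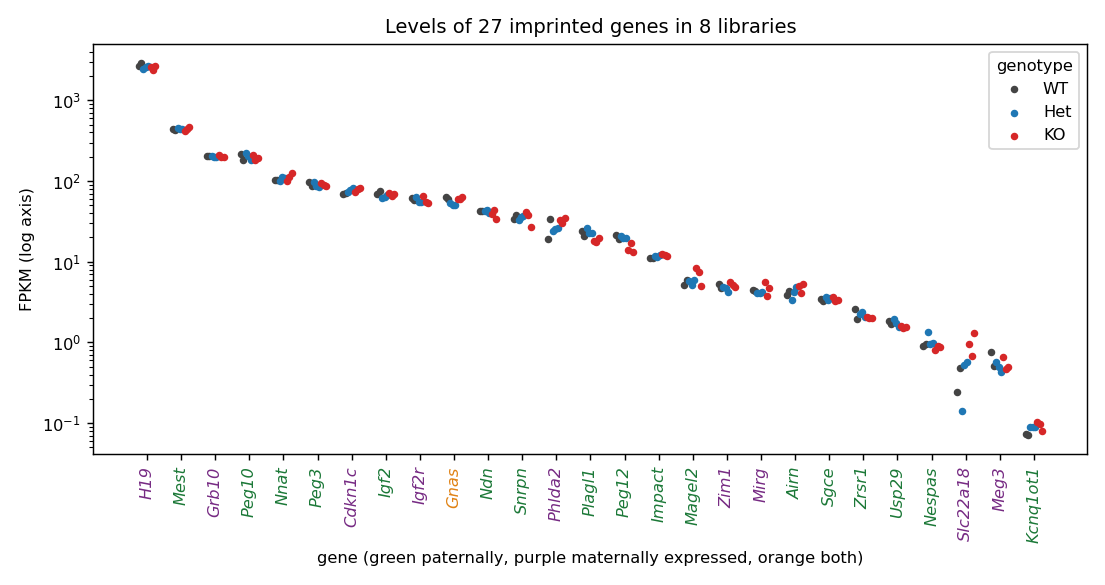
FPKM (vertical, log axis) of the 27 tested imprinted genes (horizontal, ordered by mean) in each of 8 libraries, coloured by genotype; the gene label is green for paternally, purple for maternally expressed genes and orange for Gnas. The levels run from H19 at a mean of 2624 FPKM down to Kcnq1ot1 at 0.0867 FPKM.

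In the Dlk1-Meg3 domain on chromosome 12, Dlk1, Rtl1 and Rian had few or no reads, while Meg3 and Mirg were read. This domain holds the paternally expressed genes Dlk1, a Notch-family ligand-like protein of growth and differentiation, and Rtl1, a retrotransposon-derived placental gene, and the maternally expressed noncoding RNAs Meg3, Rian and Mirg with their microRNAs. Dlk1 (109452823 to 109463336) had 0 reads in each of the 8 libraries, as had Rtl1 (109589193 to 109600330). A count of 0 allows up to 3 reads, or 0.171 to 0.178 CPM depending on the library, which for Dlk1 is at most 0.0314 FPKM; this limit covers counting error only. Rian had 1 and 0 reads in WT, 4, 3 and 0 in Het, and 1, 3 and 2 in KO. Meg3 (109541001 to 109571726) had 237 and 159 reads in WT, 177, 154 and 137 in Het, and 203, 146 and 157 in KO. Mirg, the host transcript of many microRNAs, had the most reads of the domain, 4413 over all libraries.

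From the start of Dlk1 to the end of Mirg the table has 103 rows, of which 94 (91.3%) were at 0 in every library, against 48.1% of all rows. Of the 103 rows only 10 have at least 500 exonic bases, and 6 of these were at 0; many of the short rows are microRNA and small nucleolar RNA genes, which poly(A) libraries read poorly. Protein-coding genes of GENCODE M21 with 4000 to 8000 exonic bases, the class of Dlk1 and Rtl1, were at 0 in every library in 7.97% of cases. The span from Dlk1 to Mirg held 5857 reads, of which 5783 fell on Meg3 and Mirg. Genes outside this span were read: Begain had 931 reads, Dio3, itself an imprinted gene, 951 and Ppp2r5c 15842. Dlk1 overlaps no other gene of the table, while the row of Rtl1 overlaps 7. Whether the zeros of Dlk1 and Rtl1 are levels in the tissue or come from the counting was not tested. Of 30 microRNA rows inside 8 of the imprinted genes, 25 were at 0. Mir483, in Igf2, had 179 reads, Mir335, in Mest, 39, Mir3072 29, Mir453 13 and Mir541 12, and Mir675, in H19, had 0.

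**Figure D2:**
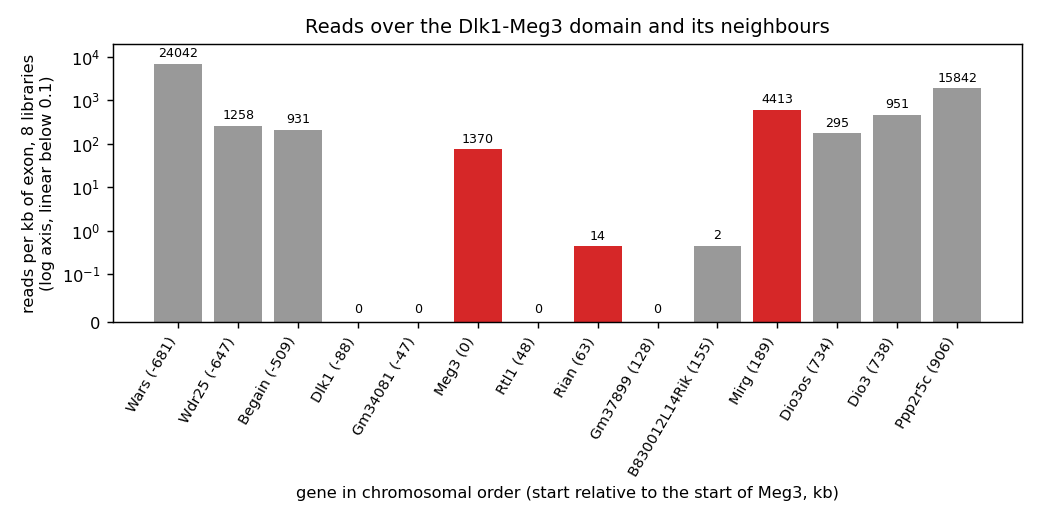
Reads per kb of exon summed over 8 libraries (vertical, log axis that turns linear below 0.1) for genes in chromosomal order around the Dlk1-Meg3 domain, with the distance of each start from the start of Meg3 in kb; red bars are imprinted genes of the list and the number above each bar is the read total. Dlk1 and Rtl1 are at 0, while genes outside the span from Dlk1 to Mirg, such as Begain (931 reads) and Dio3 (951 reads), were read.

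KO against WT asks what loss of both Prtg alleles does to these genes. No imprinted gene passed the test: 0 of 27 were called in edgeR, where 0.0369% of all tested genes were called. In the same fit 4 of the 27 had an unadjusted p under 0.05, against 7.19% of all genes, and 7 of the 27 had groups that did not overlap, against 21.7% of all genes. The median fold change was -0.01 over the 27 genes and 0.01 over all tested genes. For 19 of the 27, or 70.4%, the approximate 95% interval lay within 0.5 log2 units of 0, against 54.0% of all tested genes.

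Peg12, a paternally expressed gene without introns next to Magel2 and Ndn (chromosome 7, 62461871 to 62464510), was the member with the smallest p in KO against WT. Its level was 56.5 and 50.2 CPM in WT, 54.5, 51.2 and 51.7 CPM in Het, and 37.5, 45.4 and 35.1 CPM in KO. The 3 KO libraries were the 3 lowest and overlapped neither other genotype. The fold change was -0.44 ± 0.11 in KO minus WT (edgeR adjusted p = 0.268) and -0.42 ± 0.10 in KO minus Het (edgeR adjusted p = 0.167). Against the mean of WT and Het it was -0.43 ± 0.09 (edgeR adjusted p = 0.0841). DESeq2, which called 0.56%, 0.978% and 1.25% of the same genes in these 3 comparisons, put Peg12 past the threshold in each, with adjusted p-values of 0.0494, 0.0176 and 0.00212. Over all alternatives the adjusted p ran from 0.0137 to 0.993, from 0.00417 to 0.546 and from 0.000668 to 0.375. Without KO 2-2, the KO library with the highest Peg12, edgeR called it against the mean of WT and Het (-0.54, edgeR adjusted p = 0.0356).

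Plagl1, a paternally expressed zinc finger gene of growth control (chromosome 10, 13060504 to 13131694), was also lowest in KO. Its level was 186 and 161 CPM in WT, 205, 178 and 175 CPM in Het, and 140, 139 and 154 CPM in KO. The KO libraries lay below all others, the nearest being WT 2-1. The fold change was -0.26 ± 0.09 in KO minus WT (edgeR adjusted p = 0.591; -0.16 without WT 1-2), -0.36 ± 0.08 in KO minus Het (edgeR adjusted p = 0.149) and -0.31 ± 0.07 against the mean of both (edgeR adjusted p = 0.143). DESeq2 called it in the last 2, with adjusted p-values of 0.00554 and 0.00739, and over all alternatives these ranged from 0.00167 to 0.507 and from 0.00252 to 0.526. The annotated promoter windows of Peg12 and Plagl1, 250 bases before to 50 after a RefSeq start, are shown because these paternally expressed genes had the lowest KO values, and methylation of CpG pairs is the mark of imprinting. CpG pairs are in capitals, 5′ to 3′ on the gene's strand.
Peg12 (GRCm38.p6, chr7:62464461-62464760, minus strand): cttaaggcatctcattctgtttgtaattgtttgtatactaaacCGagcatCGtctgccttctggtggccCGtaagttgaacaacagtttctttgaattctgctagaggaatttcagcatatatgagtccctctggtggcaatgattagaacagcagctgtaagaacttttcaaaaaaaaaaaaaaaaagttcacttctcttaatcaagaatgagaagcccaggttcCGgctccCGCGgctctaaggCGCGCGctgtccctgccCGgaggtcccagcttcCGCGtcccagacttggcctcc
Plagl1 (GRCm38.p6, chr10:13090582-13090881, plus strand): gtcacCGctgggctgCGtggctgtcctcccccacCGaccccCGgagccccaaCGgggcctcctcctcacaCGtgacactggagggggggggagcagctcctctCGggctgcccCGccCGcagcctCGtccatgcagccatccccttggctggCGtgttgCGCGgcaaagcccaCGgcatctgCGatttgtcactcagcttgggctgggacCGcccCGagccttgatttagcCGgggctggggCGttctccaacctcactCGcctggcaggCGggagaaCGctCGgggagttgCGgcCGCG
The Peg12 window has 12 CpG pairs and the Plagl1 window 26, against a median of 7 over 32851 windows of all genes and 11.5 over the 36 windows that matched 23 of the imprinted genes. The letters TGCCGC, the motif of ZFP57, searched on both strands, were present once in the Plagl1 window and not in that of Peg12. They were present in 25.0% of the windows of imprinted genes, some of which overlap, and in 11.6% of all windows. These are properties of the sequence, and methylation was not measured.

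Slc22a18, a maternally expressed transporter gene of the Kcnq1ot1 cluster, rested on few reads. It had 7 and 14 reads in WT, 4, 15 and 17 in Het, and 28, 20 and 39 in KO. Every KO library was above every other library. The fold change was 1.45 ± 0.55 in KO minus WT (edgeR adjusted p = 0.637), 1.26 ± 0.47 in KO minus Het (edgeR adjusted p = 0.393) and 1.35 ± 0.42 against the mean of both (edgeR adjusted p = 0.262). Its neighbour Kcnq1ot1, the noncoding RNA that silences the cluster on the paternal allele, was at 6.89 and 6.67 CPM in WT, 8.32, 8.20 and 8.28 CPM in Het, and 9.66, 9.01 and 7.58 CPM in KO. Both WT libraries were below all others (KO minus WT 0.37 ± 0.15, edgeR adjusted p = 0.657). Cdkn1c in the same cluster was at 142 and 146 CPM in WT, 150, 159 and 168 CPM in Het, and 151, 163 and 167 CPM in KO, with KO minus WT at 0.15 ± 0.07 (edgeR adjusted p = 0.698). Phlda2 was at 21.5 and 38.2 CPM in WT, 26.7, 28.4 and 29.1 CPM in Het, and 37.2, 33.5 and 39.0 CPM in KO. The WT libraries of Phlda2 lay near the low and the high end of all values, and its KO minus WT value of 0.29 ± 0.19 (edgeR adjusted p = 0.755) became -0.07 without WT 1-2.

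The growth factor genes and the other abundant members differed little between KO and WT. Igf2 was at 395 and 429 CPM in WT, 356, 361 and 384 CPM in Het, and 404, 374 and 402 CPM in KO (KO minus WT -0.07 ± 0.07, edgeR adjusted p = 0.865). H19 was at 6622 and 7245 CPM in WT, 6095, 6283 and 6546 CPM in Het, and 6408, 5850 and 6645 CPM in KO (-0.14 ± 0.06, edgeR adjusted p = 0.700). Igf2 and H19 overlapped between KO and WT. Igf2r was at 580 and 539 CPM in WT, 586, 511 and 517 CPM in Het, and 616, 516 and 499.6 CPM in KO. Grb10 was at 1874 and 1879 CPM in WT, 1864, 1803 and 1810 CPM in Het, and 1907, 1792 and 1800 CPM in KO. Neither showed separate groups in KO and WT, with fold changes of -0.04 ± 0.10 for Igf2r and -0.03 ± 0.05 for Grb10, for which the 95% intervals were -0.25 to 0.17 and -0.15 to 0.09. Mest was at 1740 and 1720 CPM in WT, 1803, 1731 and 1733 CPM in Het, and 1657, 1731 and 1838 CPM in KO. Peg3 was at 1307 and 1149 CPM in WT, 1302, 1162 and 1139 CPM in Het, and 1251, 1200 and 1166 CPM in KO. Their KO minus WT values were 0.01 ± 0.06 and -0.03 ± 0.08, with 95% intervals of -0.12 to 0.14 and -0.20 to 0.15. Meg3, at 13.8 and 9.30 CPM in WT, 10.5, 9.02 and 7.88 CPM in Het, and 12.0, 8.54 and 9.01 CPM in KO, overlapped in all genotypes (KO minus WT -0.23 ± 0.21).

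The remaining members had KO minus WT values between -0.19 and 0.32. Magel2 was at 0.32 ± 0.18, Airn at 0.23 ± 0.17, Impact at 0.14 ± 0.06, Nnat at 0.13 ± 0.09, Mirg at 0.12 ± 0.14, Zim1 at 0.05 ± 0.10 and Sgce at 0.03 ± 0.09. Snrpn was at -0.01 ± 0.14, Peg10 at -0.02 ± 0.10, Nespas at -0.08 ± 0.23, Ndn at -0.15 ± 0.09, Zrsr1 at -0.15 ± 0.15 and Usp29 at -0.19 ± 0.11. Magel2, a ubiquitin ligase regulator, was high in KO 1-3 and KO 2-2 and lowest of all libraries in KO 2-3. Impact was higher in each KO library, at 61.4 to 63.8 CPM, than in any other, the highest of which was Het 2-5 at 61.3 CPM.

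**Figure D3:**
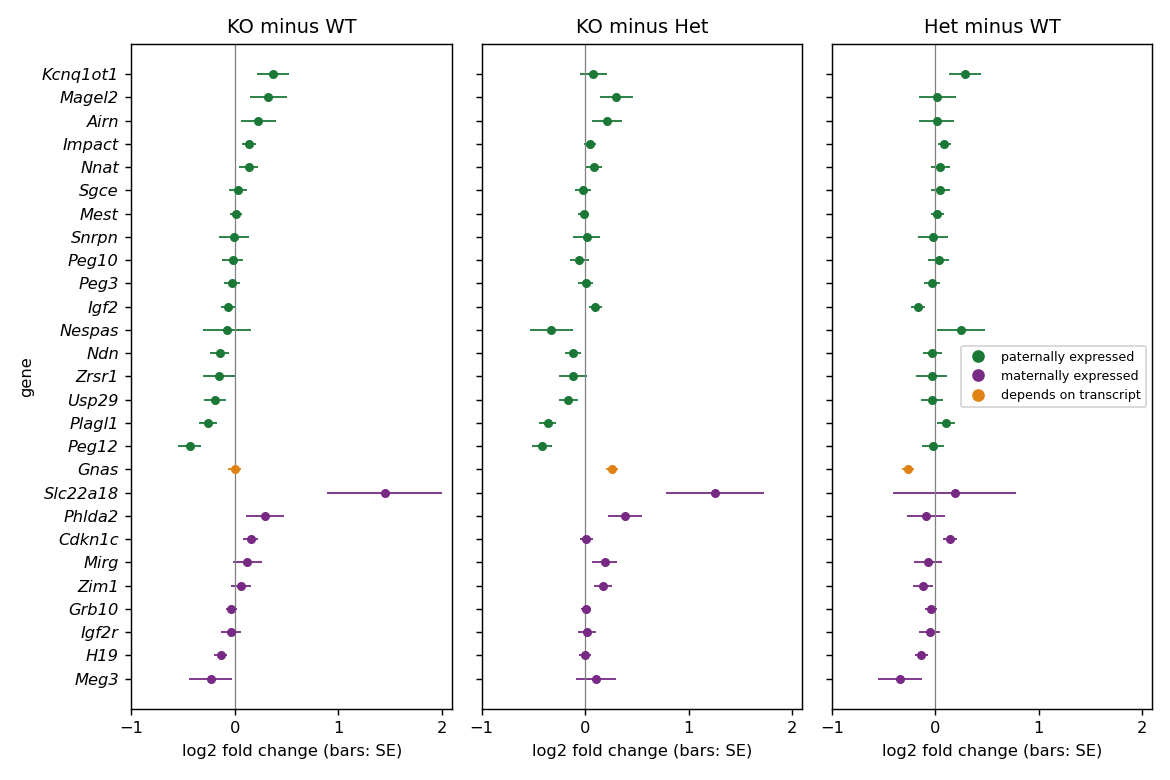
Log2 fold change (horizontal) with its SE (bars) of the 27 tested imprinted genes in KO minus WT, KO minus Het and Het minus WT, green for paternally, purple for maternally expressed genes and orange for Gnas. Peg12 and Plagl1 lie lowest and Slc22a18 highest in both comparisons with KO, and 0 of 27 genes were called in each comparison.

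KO against Het, the comparison of genotypes with 3 libraries each, called 0 of 27 imprinted genes in edgeR, where 0.191% of all genes were called. An unadjusted p under 0.05 was reached by 5 members, against 10.9% of all genes, and 8 members did not overlap between the groups, against 16.8%. Gnas (chromosome 2, 174284320 to 174346744) had the smallest p. It was at 718 and 690 CPM in WT, 605, 578 and 575 CPM in Het, and 691, 687 and 729 CPM in KO. The Het libraries were the 3 lowest, while KO and WT overlapped. Its fold change was 0.26 ± 0.06 in KO minus Het (edgeR adjusted p = 0.125; DESeq2 adjusted p = 0.00346, range over the alternatives 0.00346 to 0.545) and -0.00 ± 0.06 in KO minus WT (edgeR adjusted p = 0.994). DESeq2 called Gnas, Peg12 and Plagl1 in this comparison, 3 of the 27, where it called 0.978% of all genes. Phlda2 was at 0.38 ± 0.17 (edgeR adjusted p = 0.446), with every KO library above every Het library.

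Het against WT asks what the loss of 1 Prtg allele does. Here 0 of 27 imprinted genes and 0% of all tested genes were called by edgeR, DESeq2 called 2 genes in all (0.0123%) and 0 members, and 2 members had an unadjusted p under 0.05, against 1.8% of all genes. These 2 were Gnas and Igf2 (-0.17 ± 0.07, edgeR adjusted p = 1.00). The groups of 9 members did not overlap, against 18.1% of all genes. H19 (-0.14 ± 0.06) and Igf2 were lower in each Het library than in either WT library, and Cdkn1c (0.14 ± 0.07) and Kcnq1ot1 (0.29 ± 0.15) were higher. Setting KO against WT and Het together, edgeR called 0 of 27 members, where 0.332% of all genes were called, and the groups of 4 members did not overlap, against 8.62% of all genes. With no filter on low counts edgeR called 1 member in KO minus WT, 3 in KO minus Het, 0 in Het minus WT and 3 against the mean, where it called 0.711%, 1.52%, 0.0382% and 1.78% of all genes. These comparisons share libraries, so their values are not independent of each other.

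**Figure D4:**
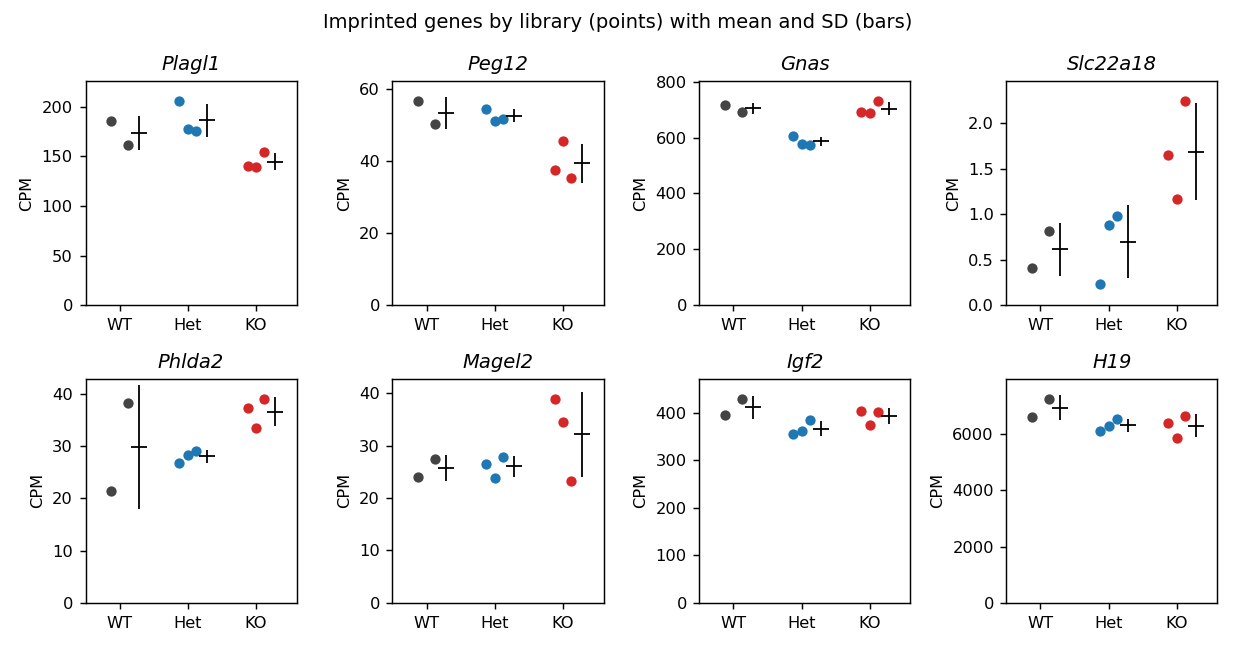
CPM (vertical, from 0) by genotype (horizontal) of 8 imprinted genes, with each library a point and the bar beside them the mean and SD (n = 2 WT, 3 Het and 3 KO). The KO points of Plagl1 and Peg12 lie below and those of Slc22a18 above all others, the Het points of Gnas lie lowest, and 1 KO library of Magel2 lies below its WT points.

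Paternally and maternally expressed genes were then set side by side. In KO minus WT the median fold change was -0.02 over the 17 tested paternally expressed genes, of which 7 were above 0, and 0.05 over the 9 maternally expressed genes, of which 5 were above 0. In KO minus Het 8 of 17 paternally and 8 of 9 maternally expressed genes were above 0, with medians of -0.01 and 0.11, against 51.3% of all tested genes and a median of 0.01. In Het minus WT 10 of 17 and 2 of 9 were above 0, with medians of 0.02 and -0.07. No gene of either class was called, and members of a cluster share control regions, so these counts are descriptions.

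The mean log2(CPM + 1) of the paternally expressed genes minus that of the maternally expressed genes was -0.23 and -0.33 in WT, -0.14, -0.23 and -0.22 in Het, and -0.46, -0.28 and -0.48 in KO. KO 1-3 and KO 2-3 were the 2 lowest libraries, and KO 2-2 lay between the WT libraries. The mean was -0.28 ± 0.07 in WT (SD, n = 2), -0.20 ± 0.05 in Het (SD, n = 3) and -0.40 ± 0.11 in KO (SD, n = 3). KO and Het did not overlap and KO and WT did. Maternally expressed genes had a mean of 6.72 ± 0.11 in KO and 6.62 ± 0.04 in WT, and paternally expressed genes 6.32 ± 0.05 and 6.33 ± 0.03, all as log2(CPM + 1). Without the low-count gene Slc22a18, left out after seeing the data, KO minus WT went from -0.12 to -0.04 and KO minus Het from -0.21 to -0.14. Without Grb10, whose class differs in neurons, the values were -0.14 and -0.23. The pooled SD within genotypes was 0.08 with all genes of both classes, and was not computed without these genes. Leaving out 1 library, KO minus WT ran from -0.18 without KO 2-2 to -0.07 without WT 1-2, KO minus Het from -0.27 without KO 2-2 to -0.17 without KO 2-3, and Het minus WT from 0.04 without WT 2-1 to 0.14 without WT 1-2.

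**Figure D5:**
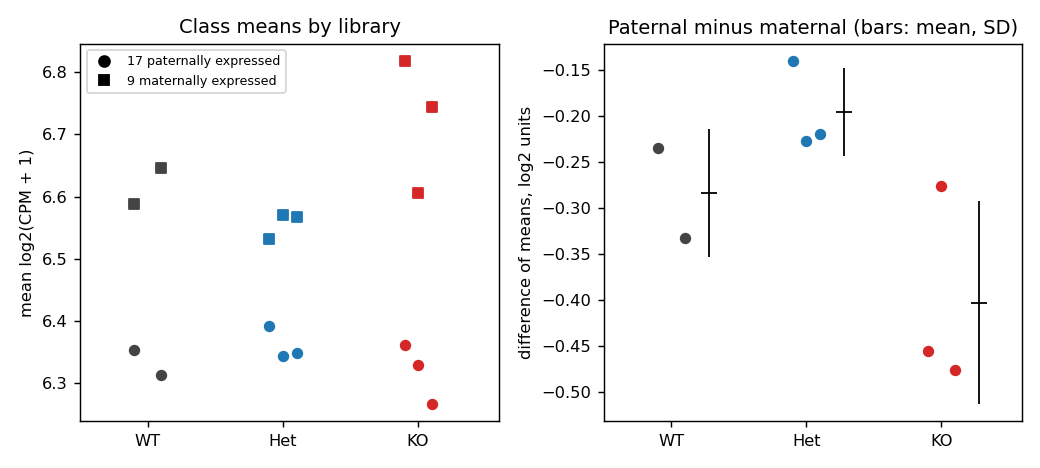
Left, mean log2(CPM + 1) of the 17 paternally (circles) and 9 maternally expressed genes (squares) in each library by genotype; right, their difference in log2 units with mean and SD (bars). The right-hand values run from -0.14 in a Het library to -0.48 in a KO library, and 1 KO library lies between the WT libraries.

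Neighbours within a cluster were compared over the 8 libraries, which share depth scaling and differ in genotype. Of 12 pairs set, 9 had both genes tested, 7 correlations were positive and 0 of 9 passed Benjamini-Hochberg adjustment in exact two-sided permutation tests. H19 and Igf2, which share enhancers on opposite parental alleles, varied together. Their Pearson's r was 0.825 (exact permutation p = 0.0124, adjusted p = 0.111, n = 8) and Spearman's rho 0.786 (exact permutation p = 0.0279, adjusted p = 0.126). Without the 2 libraries farthest from the median of H19 r was 0.829, and among the 5 libraries whose column name starts with 2 it was 0.856. Peg10 and Sgce, head-to-head paternally expressed neighbours, had r = 0.732 (exact permutation p = 0.0457, adjusted p = 0.206) and rho = 0.50 (exact permutation p = 0.216, adjusted p = 0.486). Without the 2 libraries farthest from the median r was 0.667, and among those 5 libraries it was 0.000365, where 5 are too few to tell whether the relation is absent. As deviations from the genotype means the r of Peg10 and Sgce was 0.746. Gnas and its antisense RNA Nespas had r = -0.538 (exact permutation p = 0.151, adjusted p = 0.339) and rho = -0.810 (exact permutation p = 0.0218, adjusted p = 0.126), with r = -0.886 without the 2 farthest libraries. Gnas was lowest in Het while KO and WT overlapped, and as deviations from the genotype means that r was 0.548. The 3 libraries whose name starts with 1 are too few for a value.

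Other imprinted genes gave a like count. Of 39 further imprinted genes, 31 were tested and 0 were called between genotypes in edgeR with the filter and 0 by DESeq2. In KO minus WT 3 of 31 had an unadjusted edgeR p under 0.05, against 7.19% of all genes. Dio3, the thyroid hormone-inactivating deiodinase gene, lies beyond the span from Dlk1 to Mirg that was counted above. It was at 6.01 and 5.09 CPM in WT, 5.82, 6.33 and 5.98 CPM in Het, and 10.2, 6.79 and 9.24 CPM in KO. Its KO libraries were the 3 highest (KO minus WT 0.66 ± 0.20, edgeR adjusted p = 0.497; KO minus Het 0.53 ± 0.17, edgeR adjusted p = 0.324). With no filter on low counts edgeR called it against the mean of WT and Het (adjusted p = 0.0473). Atp10a was at -0.46 ± 0.14 in KO minus WT (edgeR adjusted p = 0.497) and -0.35 ± 0.14 in Het minus WT. Calcr, the calcitonin receptor gene, reached 1.12 CPM at most and passed the filter only through KO libraries, so no fold change is given. Mcts2 was at 0.33 ± 0.15 in Het minus WT (edgeR adjusted p = 1.00).

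Genes that set or keep imprints, and genes of IGF signalling, were not called either with the filter. Of 21 regulators of imprinting 19 were tested, with 0 called in edgeR and DESeq2 in each comparison. An unadjusted edgeR p under 0.05 was reached by 0, 1 and 0 in KO minus WT, KO minus Het and Het minus WT. The shares of all genes were 7.19%, 10.9% and 1.8%. Uhrf1, which guides maintenance methylation, was at 0.09 ± 0.06 in KO minus WT (edgeR adjusted p = 0.768). Tet1, a dioxygenase of methylated cytosine, was at 0.45 ± 0.17 in KO minus Het (edgeR adjusted p = 0.391) and was highest in KO 1-3 at 64.4 CPM. Without KO 1-3 it was at 0.17 and not called, and with no filter on low counts edgeR called it (adjusted p = 0.0226), as it did against the mean of WT and Het (adjusted p = 0.0473). In Het minus WT the smallest p-values belonged to Zfp445 (0.07 ± 0.07) and Dnmt3b (-0.08 ± 0.08). Of 16 IGF pathway genes 14 were tested, with 0 called in edgeR and DESeq2. At an unadjusted edgeR p under 0.05 there were 1, 2 and 0, against the same shares of all genes. Igfbp4, an IGF binding protein gene, was at -0.20 ± 0.09 in KO minus WT (edgeR adjusted p = 0.682). Irs4, an insulin receptor substrate, was at 0.86 ± 0.29 in KO minus Het (edgeR adjusted p = 0.349), and Insr, the insulin receptor gene, at 0.23 ± 0.10 (edgeR adjusted p = 0.457). Igf1 and the receptor gene Igf1r had the smallest p-values in Het minus WT, at 0.32 ± 0.19 and -0.08 ± 0.07.

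Imprinted genes differ in level between cell types, so marker lists were measured in the same libraries. Of 75 marker genes in 10 lists, 62 were tested, and 0 were called in KO minus WT and Het minus WT in edgeR. In KO minus WT DESeq2, which called 0.56% of all genes, called 3 of 6 lateral plate and hindlimb markers lower. These were Tbx4, Pitx1 and Isl1, with DESeq2 adjusted p-values of 0.000364, 0.00184 and 0.0368. Isl1 is also on the list of 7 differentiating neuron markers, as the 1 gene of that list called by DESeq2. In KO minus Het DESeq2 called the same 3 lower and Hand1 higher (DESeq2 adjusted p = 0.00573), against 0.978% of all genes. In edgeR, 2 hindlimb genes were called lower in KO relative to the mean of WT and Het. Pitx1 was at -0.47 ± 0.07 (edgeR adjusted p = 0.0281). Tbx4 was at -0.93 ± 0.16 (edgeR adjusted p = 0.0395). Of the 6 genes of their list, 4 were below 0 and 2 above, and Hand1 was at 0.27 ± 0.08 (edgeR adjusted p = 0.218). Irx3, a neural tube transcription factor gene, rose (0.35 ± 0.05, edgeR adjusted p = 0.0174), and also in KO minus Het (0.39 ± 0.06, edgeR adjusted p = 0.0330). It was the 1 of 7 neural tube markers called, and 5 of the 7 were above 0 against the mean and 4 of the 7 in KO minus Het, with medians of 0.08 and 0.05. Each of these edgeR calls was lost without WT 1-2, WT 2-1 or Het 2-4. Over all alternatives the adjusted p against the mean ran from 5.04e-06 to 0.105 for Pitx1 and from 1.78e-07 to 0.147 for Tbx4. For Irx3 in KO minus Het it ran from 0.00014 to 0.225. The summed level of 6 lateral plate and hindlimb markers was 326 to 352 CPM in KO, 364 to 404 CPM in Het and 376 to 407 CPM in WT, and that of 7 neural tube markers 254 to 264, 217 to 241 and 212 to 243 CPM. The 7 differentiating neuron markers summed to 45.3 to 49.7 CPM in KO, 54.0 to 63.6 in Het and 55.7 to 62.4 in WT. Isl1 alone was at 17.6 to 38.8 CPM over the 8 libraries. In KO minus WT 5 of these 7 markers were below 0 and 2 above. Erythroid markers summed to 4039 to 6431 CPM in KO, 2827 to 4602 in Het and 2882 to 5831 in WT. Of these 8 markers, 8 were above 0 in KO minus WT and in KO minus Het, with medians of 0.14 and 0.41. In Het minus WT 0 of the 8 were above 0, with a median of -0.23. EdgeR and DESeq2 called 0 of the 8 in each of these comparisons. Of the extraembryonic lists, yolk sac endoderm summed to at most 43.4 CPM in any library and the trophoblast gene Ctsq and the decidua genes Prl8a9 and Prl3c1 were at 0 in all 8. Of 8 trophoblast markers 1 was tested, Hand1, which is also on the hindlimb list, and the 8 summed to 78.2 to 88.0 CPM in KO, 57.5 to 66.7 in Het and 68.7 to 82.0 in WT. Hand1 alone was at 57.0 to 87.6 CPM over the 8 libraries, so this sum is nearly all Hand1. Of 7 decidua markers 4 were tested, and the 7 summed to 94.8 to 116 CPM in KO, 135 to 144 in Het and 130 to 133 in WT. Most of this sum was Hand2, at 70.0 to 106 CPM over the 8 libraries, and Des, at 19.6 to 37.6 CPM. The amounts of trophoblast and decidua were therefore not tested by these sums. In KO minus Het edgeR called 0 of these 4, while DESeq2 called Des, a muscle filament gene (-0.54, DESeq2 adjusted p = 0.00573), and Hand2, a transcription factor gene also active in embryonic mesoderm (-0.32, DESeq2 adjusted p = 0.0466). The part of these cell types in the values of Peg12, Plagl1, Gnas and Slc22a18 was not tested.

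The first number in the column names, which the sources used here do not explain, was also set against the levels of the imprinted genes. It is 1 in WT 1-2, Het 1-1 and KO 1-3 and 2 in the other 5 libraries, and it was compared as a term beside genotype, a choice made after seeing the data. In edgeR 0 of 27 imprinted genes were called, where 0.0492% of all genes were called, and 7 of 27 had an unadjusted p under 0.05, against 11.6% of all genes. DESeq2 called 1 member and 0.406% of all genes, and edgeR with no filter 2 members and 1.28%. Peg10 was at 1428 CPM in WT 1-2 and 1229 in WT 2-1, at 1509 in Het 1-1 and 1346 and 1223 in the other Het libraries, and at 1420 in KO 1-3 and 1231 and 1276 in the other KO libraries. The library whose number starts with 1 was thus the highest within each genotype (0.21 ± 0.05, edgeR adjusted p = 0.224; DESeq2 adjusted p = 0.0320, range over the alternatives 0.00467 to 1.00). The same order held for Igf2r (0.20 ± 0.05, edgeR adjusted p = 0.253), Meg3 (0.43 ± 0.11, edgeR adjusted p = 0.293) and Peg3 (0.15 ± 0.04, edgeR adjusted p = 0.322). All 3 libraries whose number starts with 1 are also among the 4 with high Xist. In those 4 the Y-linked gene Ddx3y was at 0 to 0.234 CPM, against 38.9 to 43.7 CPM in the rest. Column number and embryo sex, read from these genes, thus part only in Het 2-4. With the mean log2 level of Y-linked genes as a further term, also added after seeing the data, Peg10 was at 0.12, Meg3 at 0.25, Igf2r at 0.21 and Peg3 at 0.14, each with an edgeR adjusted p of 1.00.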

How the data were processed

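Poly(A) RNA libraries of 2 WT, 3 Het and 3 KO samples were deposited as 1 table. The authors deposited whole-number read counts per gene, not normalized, with exonic lengths. Per the submitters' processing notes the tools include HTSeq 0.6.1, HISAT2 2.0.1 and cutadapt 1.9.1, and the builds are mm10 and GRCm38; roles, annotation and strand setting are not stated there. Column numbers match no sample number, so columns were assigned to genotypes only. Counts were tested with edgeR 4.0.16 (R 4.3.3): TMM scaling, default expression filter, quasi-likelihood fit of all 8 libraries with 1 mean per genotype, two-sided, checked on simulated counts. In that check 40.9% of planted 1.5-fold and 64.2% of planted 2-fold changes were called in KO minus WT. In KO minus Het 51.5% and 70.1% were called, so changes of this size can go uncalled. With 200 genes changed, the simulation gave 133 calls in KO minus WT, against 6 in the data. More calls make the adjusted threshold easier to pass, so these shares can be too high for the data. Levels within a gene are CPM after TMM scaling, and levels between genes are FPKM computed from counts, column totals and exonic lengths. Approximate 95% intervals used a t quantile of 2.20. Pairs of libraries of 1 genotype differed by 5.26 to 30.4 times the counting variance, so none were merged. The pairs with KO 1-3 were at 26.6 and 30.4, and all other pairs at 11.9 or less. Total counts were 16874860 to 17511964; counting limits take no account of PCR copies. Alternatives were DESeq2 1.42.0, limma-voom (limma 3.58.1), DESeq2 size factors, other filters, only the compared genotypes, column number or Y-linked level as a term, and leaving out each library. Correlations used log2(CPM + 1) and SciPy 1.17.1. Members and lists were chosen with earlier results of these data known. Values in every library are given for called members, the 4 members with the smallest p in each pairwise comparison, and Igf2, H19, Dlk1, Meg3, Cdkn1c, Grb10, Igf2r, Mest, Peg3 and Plagl1; Phlda2 and Dio3 were added after their values were seen. Of the other lists, called genes or the 1 to 2 with the smallest p are named, and of the marker lists called genes only.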

Additional observations from a re-analysis of the deposited data

How the results depend on the processing

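No paired analysis was possible because the columns carry no sample number of the labels, so no replicate block was fitted; the first number in the column names was fitted as a term instead. The count of 0 called imprinted genes held in Het minus WT under every alternative run. DESeq2 called 1 in KO minus WT, 3 in KO minus Het and 2 in KO against the mean of WT and Het, and edgeR with no filter on low counts called 1, 3 and 3. With no filter Slc22a18 was called against that mean (1.35, edgeR adjusted p = 0.0370). Leaving out 1 library gave 0 to 1 called against that mean, the 1 being Peg12 without KO 2-2. The other alternatives gave 0, and the cause was not tested. All genes called numbered 6 in KO minus WT, 31 in KO minus Het, 0 in Het minus WT and 54 against the mean, and the values below are in this order. DESeq2 called 91, 159, 2 and 204, and no filter 205, 437, 11 and 514. Only the compared genotypes gave 1, 10 and 0, the column number as a term 19, 47, 0 and 65, and the Y-linked level as a term 19, 33, 0 and 62. Without 1 library they were 1 (without WT 1-2) to 28 (without KO 1-3), 2 (without Het 1-1 or Het 2-4) to 49 (without KO 1-3), 0 to 1, and 9 (without Het 2-4) to 62. For column number 1 minus 2, DESeq2 called 1 imprinted gene, no filter 2, and leaving out a library 0 to 2, the 2 being Peg3 and Peg10 without KO 1-3; of all genes 66, 369 and 2 to 153 were called, against 8. The class difference kept its sign under every alternative run. As deviations from the genotype means 2 neighbour pairs passed adjustment, H19 with Igf2 (r = 0.944) and Peg3 with Usp29 (r = 0.823), where 0 passed otherwise; over the 8 libraries Peg3 with Usp29 had r = 0.628 (exact permutation p = 0.103, adjusted p = 0.308), -0.226 without the 2 farthest libraries and -0.348 among the 5 libraries whose number starts with 2. The deviations within a genotype sum to 0, so that test is approximate. Values near 0 changed sign in KO minus WT, none of them called: with the column number as a term Gnas (0.0018), Peg3 (0.000329) and Peg10 (0.015), and with the Y-linked level as a term Gnas (0.000235) and Peg10 (0.018). Without 1 library the ranges were -0.035 to 0.023 for Gnas, -0.067 to 0.76 for Phlda2, -0.50 to 0.078 for Meg3, -0.14 to 0.018 for Igf2r, -0.030 to 0.044 for Mest, -0.12 to 0.067 for Peg3, -0.13 to 0.088 for Peg10, -0.14 to 0.15 for Snrpn, -0.023 to 0.069 for Sgce, -0.34 to 0.061 for Zrsr1, -0.019 to 0.13 for Zim1, -0.035 to 0.25 for Mirg, -0.18 to 0.035 for Dnmt3b in Het minus WT and -0.072 to 0.044 for Prtg in KO minus Het. The fold changes of Peg12, Plagl1 and Slc22a18 in comparisons with KO kept their sign in every alternative run.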
